A study of Mus musculus with 10 samples.

Results

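This account concerns 52 mouse genes of the interferon response and of MHC class I antigen presentation, measured in clonal lines of 3T3-L1 cells. They are 35 interferon-stimulated genes and 17 antigen presentation genes, and they were taken by their symbols. Of the 52, 42 had a probe set annotated to their symbol alone (31 and 11), out of 19937 genes of the array with such a probe set. For a gene with several, the brightest over the 10 arrays was taken. Genes dim on most arrays, those above the 25th percentile of an array's signals on fewer than 5 of 10, were not tested. That left 39 of the 52 genes (28 interferon-stimulated and 11 antigen presentation) among 16339 genes tested. Mx1, Mx2 and Iigp1 were below this level. Isg15, Gbp2, Igtp, H2-D1, H2-K1, H2-Q6, H2-T22 and H2-T23 were met only by probe sets that also list another gene, and Ifi44 and H2-Q7 by none, so these 10 have no value of their own here.

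3T3-L1 is a line of mouse embryonic fibroblasts that can be turned into fat-storing adipocytes in culture. RNA came from untreated, still proliferating cells kept below confluence in DMEM with 10% serum, from 5 clonal lines of Low and 5 of High adipogenic potential. The Low clones, in replicate order, are named 1E7, 2D7, 2F1, 4D11 and 4H4, and the High clones 3F4, 4D2, 4E3, 5C4 and 5D4. No agent was given to either class. Each line is 1 clone measured on 1 array, so a class is represented by 5 clones, and variation between clones and variation between arrays cannot be told apart. Values are log2 intensities after RMA, and a difference of 1 on this scale is a doubling. Array medians lay between 7.74 and 7.84, highest in High replicate 4, which also held the highest of the 10 values for 28.9% of all genes tested.

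Interferons are secreted proteins that bind receptors on the cell surface and, through Janus kinases, activate STAT transcription factors. Type I interferons lead to a complex that holds STAT2 and IRF9 and binds the interferon-stimulated response element (ISRE), whereas interferon-gamma acts mainly through the gamma-activated site (GAS). The induced genes encode sensors of viral nucleic acid, transcription factors that extend the response, and proteins that block viral entry, translation or release. MHC class I molecules, a heavy chain with beta-2 microglobulin, show peptides made by the proteasome to T cells. The peptides are carried into the endoplasmic reticulum by the TAP transporter, and interferon raises many genes of this route. Fibroblasts, among many other cell types, can make type I interferon and respond to it.

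Promoter sequence is shown first because the interferon-stimulated genes varied together between lines, and the ISRE is the element that many of them are known to share. The sequences are from RefSeq (GRCm38.p6), the 250 bases before the annotated start on the gene's own strand, written 5′ to 3′. Capitals mark matches to the core of the ISRE, searched as GAAA, any 2 bases and GAAA again, or to its reverse complement. The search used a window of 300 bases, from 250 before to 50 after the start, and both strands. Ifit1 (chr19:34640639-34640888, + strand) had matches that begin 104 and 85 bases before the start, and Ifit3 (chr19:34583279-34583528, + strand) at 156 and 122 bases. Bst2 (chr8:71537473-71537722, - strand) had overlapping matches at 130 and 124 bases, Stat2 (chr10:128270248-128270497, + strand) had 1 at 222 bases and B2m (chr2:122147437-122147686, + strand) had 1 at 139 bases. Irf7 (chr7:141266425-141266674, - strand) and Oasl2 (chr5:114896684-114896933, + strand) had no match in this window and are shown because they were among the genes that varied most between the lines.
Ifit1: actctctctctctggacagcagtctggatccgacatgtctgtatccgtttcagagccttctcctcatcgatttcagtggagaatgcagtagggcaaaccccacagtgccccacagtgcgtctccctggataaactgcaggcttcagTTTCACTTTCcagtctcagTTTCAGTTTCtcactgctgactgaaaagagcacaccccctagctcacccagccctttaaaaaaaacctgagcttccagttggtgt
Ifit3: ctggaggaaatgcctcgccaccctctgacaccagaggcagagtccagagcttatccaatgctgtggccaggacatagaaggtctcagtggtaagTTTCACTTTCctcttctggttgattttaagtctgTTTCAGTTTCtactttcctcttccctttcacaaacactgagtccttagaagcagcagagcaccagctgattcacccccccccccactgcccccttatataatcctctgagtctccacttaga
Bst2: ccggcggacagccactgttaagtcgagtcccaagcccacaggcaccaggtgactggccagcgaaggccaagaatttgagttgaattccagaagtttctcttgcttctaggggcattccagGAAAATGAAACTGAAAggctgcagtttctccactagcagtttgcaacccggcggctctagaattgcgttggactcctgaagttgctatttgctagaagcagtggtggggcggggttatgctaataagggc
Stat2: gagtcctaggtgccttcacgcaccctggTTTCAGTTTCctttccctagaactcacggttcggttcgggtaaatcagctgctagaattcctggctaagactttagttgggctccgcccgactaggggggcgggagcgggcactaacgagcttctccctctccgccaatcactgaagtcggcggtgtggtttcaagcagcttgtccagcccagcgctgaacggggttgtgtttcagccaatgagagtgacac
B2m: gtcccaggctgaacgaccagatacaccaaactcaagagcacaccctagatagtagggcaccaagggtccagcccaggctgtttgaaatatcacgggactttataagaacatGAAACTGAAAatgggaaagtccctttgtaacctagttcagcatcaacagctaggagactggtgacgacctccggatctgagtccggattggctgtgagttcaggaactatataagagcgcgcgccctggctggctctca
Irf7: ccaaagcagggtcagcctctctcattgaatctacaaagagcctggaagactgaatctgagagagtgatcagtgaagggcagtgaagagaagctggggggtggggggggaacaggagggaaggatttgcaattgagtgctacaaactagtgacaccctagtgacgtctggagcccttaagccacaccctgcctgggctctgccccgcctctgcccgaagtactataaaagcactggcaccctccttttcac
Oasl2: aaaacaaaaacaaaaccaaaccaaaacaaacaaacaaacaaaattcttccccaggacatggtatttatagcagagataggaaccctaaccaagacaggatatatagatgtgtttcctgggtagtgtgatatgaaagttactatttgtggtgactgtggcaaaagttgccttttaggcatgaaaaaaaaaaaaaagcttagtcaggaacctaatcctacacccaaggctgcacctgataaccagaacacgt

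In all, 19 of 31 windows of the interferon-stimulated genes held the ISRE letters (61.3%), standing for 18 of 26 genes with a window. The antigen presentation genes had them in 3 of 15 windows, and all RefSeq promoters of the same length in 3.44% (1131 of 32851). The GAS letters TTCNNNGAA, searched on both strands, were in 22.6%, 13.3% and 8.3% of the same windows. The GAS pattern reads the same on both strands, and matches to the 2 patterns were counted apart, whether or not they overlapped. A match here is a description of letters, not of a bound site. Among tested interferon-stimulated genes, 15 had a match and their median SD over the 10 lines was 0.34, against 0.37 for 7 without one (Irf1, Irf7, Irf9, Ifit2, Oasl1, Oasl2 and Xaf1). A window was found for 40 of the 52 genes. Those of Tap1 and Psmb9, on opposite strands, share 275 bases.

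No interferon-stimulated gene differed between High and Low lines at an adjusted p under 0.05. Of the 28 tested, 22 had a positive and 6 a negative difference, the median difference was 0.09, and single differences ran from -0.26 (Irgm1) to 0.31 (Trim30a). None had an unadjusted limma p under 0.05, where 7.95% of all genes tested did, and the lowest adjusted p was 0.723 (Irf1). Over all 16339 genes the median difference was 0.02 and 58.0% of differences were positive, and 1 gene passed the adjusted threshold (0.00612%). The values of the classes overlapped for all 28 genes, whereas they did not for 1.57% of all genes. The median of 0.09 fell to -0.07 when High replicate 5 was left out. What set these genes apart was spread: 17 of the 28 covered more than 1 log2 unit between the lowest and highest line, against 5.86% of all genes, and the median SD over the lines was 0.36 against 0.14. These differences lay between single clones, within both classes.

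**Figure D1:**
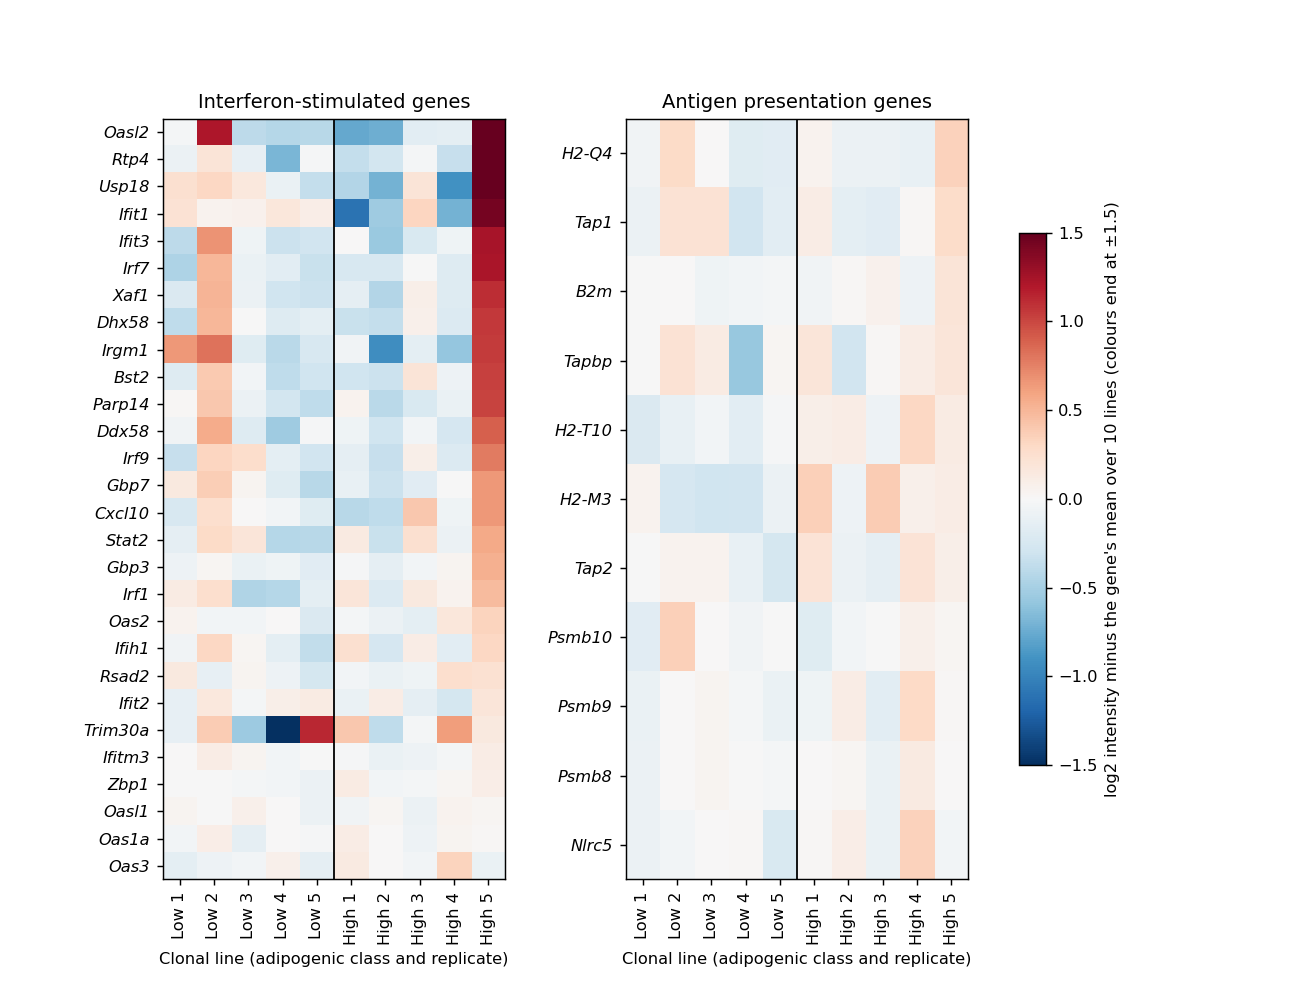
Log2 intensity of each tested gene in each of the 10 lines, minus the gene's own mean over the lines (colour, ending at ±1.5), for the 28 interferon-stimulated genes (left) and the 11 antigen presentation genes (right). Genes are in the order of their value in High replicate 5, and a vertical line parts Low from High lines; High replicate 5 is highest for 22 of the 28 and Low replicate 2 second for 19, while the right panel is paler.

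High replicate 5 (clone 5D4) had the highest signal of the 10 lines for 22 of the 28 interferon-stimulated genes (78.6%), against 7.35% of all genes. Low replicate 2 (clone 2D7) came second for 19 of the 28 and first for 0, where it was first for 9.88% of all genes. Both held at once, High replicate 5 first and Low replicate 2 second, for 18 (64.3%), against 1.66% of all genes. In High replicate 5, 17 genes stood more than 0.5 above their mean over the lines (60.7%, against 1.22% of all genes). By Dixon's criterion, which compares the gap below the highest value with the whole range, High replicate 5 stood apart from the other High lines for 5 of the 28 (Ddx58, Irf7, Oasl2, Rtp4 and Gbp3), against 0.637% of all genes. These are descriptions of chosen genes, with no test. The median of the centred values over the 28 genes placed High replicate 5 at 0.65 and Low replicate 2 at 0.30. The other 8 lines had medians below 0: High replicate 3 at -0.04, Low replicate 3 at -0.04, High replicate 1 at -0.05, Low replicate 1 at -0.05, High replicate 4 at -0.08, Low replicate 4 at -0.15, Low replicate 5 at -0.20 and High replicate 2 at -0.31. In RNA of whole cultures, more cells that express these genes and more RNA per cell cannot be told apart. The second highest line was thus a Low line and the lowest a High line. With High replicate 5 set aside, Low replicate 2 was the highest of the 9 remaining lines for 18 of the 28 genes (64.3%, against 11.5% of all genes).

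**Figure D2:**
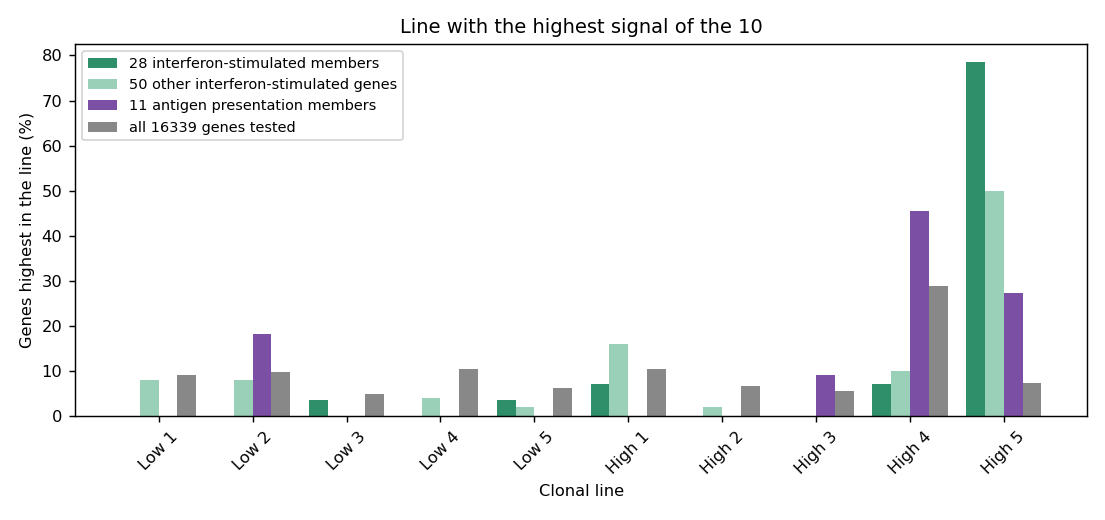
Share of genes (y axis, percent) for which each of the 10 lines (x axis) had the highest signal, for the 28 interferon-stimulated genes, 50 other interferon-stimulated genes, the 11 antigen presentation genes and all 16339 genes tested. High replicate 5 holds 78.6% and 50% of the interferon-stimulated sets and 7.35% of all genes, and High replicate 4 is highest for 28.9% of all genes.

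The transcription factors of the pathway ranked alike by the probe sets used. Irf7 (Entrez gene 54123, probe set 10569102), which amplifies type I interferon production, read 7.41, 8.37, 7.77, 7.71 and 7.54 in Low replicates 1 to 5 and 7.63, 7.63, 7.86, 7.68 and 9.09 in High replicates 1 to 5. High replicate 5 stood 0.72 above Low replicate 2, and the other 8 lines lay within 7.41 to 7.86. The class means were 7.76 ± 0.37 and 7.98 ± 0.63 (SD, n = 5 each), and the difference of 0.22 (SE 0.27, limma adjusted p = 0.845) was smaller than the spread within either class. Stat2, the STAT protein particular to the type I complex, read 9.30, 9.73, 9.62, 9.01 and 9.02 in Low lines and 9.57, 9.10, 9.68, 9.35 and 10.01 in High lines. Its difference was 0.21 (SE 0.18, limma adjusted p = 0.805). Irf9, the DNA-binding partner of STAT2, ran from 9.41 to 10.01 in 8 lines, with 10.08 in Low replicate 2 and 10.53 in High replicate 5. Irf1, a factor induced by interferon-gamma, read 10.35, 10.47, 9.77, 9.79 and 10.08 in Low lines and 10.41, 10.02, 10.37, 10.27 and 10.70 in High lines. The difference of 0.26 (SE 0.15, 95% confidence interval -0.08 to 0.60) had a limma adjusted p of 0.723. A dimmer Irf1 probe set, 10385870, did not rank the lines this way (r 0.31 with the one used). It was highest in High replicate 1 at 8.20, with 7.96 in High replicate 5 and 7.93 in Low replicate 2 (difference 0.10).

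The sensors of viral nucleic acid followed, all with differences between 0.07 and 0.09. Ddx58, which encodes the RNA sensor RIG-I, ran from 10.35 to 10.86 in 8 lines and reached 11.44 in Low replicate 2 and 11.77 in High replicate 5. Dhx58, a related helicase that regulates RIG-I and MDA5, ran from 7.44 to 7.89 in 8 lines, with 8.31 and 8.88 in the same pair. Both genes thus separated the same pair of lines from the remaining 8. Ifih1, which encodes MDA5, was level between High replicate 5 and Low replicate 2 at 7.11, with 7.04 in High replicate 1. Zbp1, a sensor of Z-form nucleic acid, covered 0.22 over all lines.

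Usp18 and the effectors held the widest ranges. Usp18, a protease that removes ISG15 from proteins and damps type I signalling, read 8.46, 8.54, 8.38, 8.12 and 7.87 in Low lines and 7.78, 7.51, 8.42, 7.32 and 9.84 in High lines. The value of High replicate 5 was 2.45-fold above the next line. Ifit1, which binds RNA that lacks the host cap methylation, read 8.20, 8.03, 8.04, 8.15 and 8.08 in Low lines and 6.87, 7.45, 8.30, 7.27 and 9.42 in High lines. The Low lines lay between 8.03 and 8.20 (SD 0.07), while the High lines covered 2.55 (SD 1.02) and held both the highest and the lowest values. In this Ifit1 differed from Irf7, since Low replicate 2 did not stand out. The High minus Low difference was -0.23 (SE 0.38, limma adjusted p = 0.875) for Ifit1 and -0.10 (SE 0.39, limma adjusted p = 0.948) for Usp18. Without High replicate 5 these were -0.62 and -0.52, with unadjusted limma p of 0.0151 and 0.0295 and adjusted p of 0.393 and 0.474. Ifit3, a partner of Ifit1, kept the other pattern, with 8.89 in Low replicate 2, 9.46 in High replicate 5 and 7.66 to 8.22 elsewhere. Ifit2, from the same family, stayed within 9.09 to 9.54. The Ifit and Oas families hold close copies, whose signal a probe set can share.

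Oasl2 (Entrez gene 23962, probe set 10524621), of the oligoadenylate synthetase family, had the largest SD over the lines (0.85). It read 8.40, 9.64, 8.03, 8.0 and 8.01 in Low lines and 7.66, 7.69, 8.27, 8.28 and 10.28 in High lines. Only Low replicate 2 and High replicate 5 exceeded 8.40, and the highest line was 6.14-fold above the lowest. The class means were 8.42 ± 0.70 and 8.44 ± 1.07 (SD, n = 5 each), a difference of 0.02 (SE 0.47, limma adjusted p = 0.993) whose sign turned under several processing settings and with single lines left out. The other synthetase genes tested among those chosen varied less: Oas1a, Oas3 and Oasl1 covered 0.24, 0.48 and 0.17 and Oas2 covered 0.55. Oas1b, a synthetase gene outside the chosen ones, covered 1.19. It was highest in High replicate 5 at 7.49, with Low replicate 2 next at 7.06. Rtp4, an interferon-induced chaperone of G protein-coupled receptors, read 7.49, 7.78, 7.46, 6.90 and 7.56 in Low lines and 7.22, 7.30, 7.55, 7.23 and 9.32 in High lines. The value of High replicate 5 was 2.91-fold above the next, which was Low replicate 2 at 7.78. Its difference of 0.29 (SE 0.35, limma adjusted p = 0.845) became -0.11 without High replicate 5.

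Bst2, or tetherin, which holds budding virus at the membrane, read 9.41, 10.00, 9.56, 9.22 and 9.30 in Low lines and 9.30, 9.28, 9.80, 9.53 and 10.63 in High lines (difference 0.21, SE 0.24, limma adjusted p = 0.834). As before, High replicate 5 was first and Low replicate 2 second, and without High replicate 5 the difference was -0.02. Xaf1, a promoter of apoptosis, and Parp14, an ADP-ribosyltransferase, ran the same way, at 8.85 and 8.37 in High replicate 5 and 8.25 and 7.76 in Low replicate 2, against at most 7.83 and 7.41 elsewhere. Ifitm3, which blocks fusion of virus with the cell, read 13.58, 13.68, 13.61, 13.53 and 13.57 in Low lines and 13.56, 13.48, 13.50, 13.54 and 13.69 in High lines. It was nearly flat, with a range of 0.22 (difference -0.04, SE 0.06, limma adjusted p = 0.874). Rsad2, or viperin, covered 0.51 and was highest in High replicate 4. Trim30a, a TRIM protein of the interferon response, did not follow this order. It read 10.34, 10.84, 9.91, 8.84 and 11.59 in Low lines and 10.86, 10.08, 10.43, 11.09 and 10.60 in High lines, and its difference of 0.31 (SE 0.40, limma adjusted p = 0.852) became -0.06 without Low replicate 4, its lowest line.

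Among the interferon-inducible GTPases, Irgm1 read 10.26, 10.42, 9.43, 9.20 and 9.37 in Low lines and 9.56, 8.68, 9.46, 9.03 and 10.66 in High lines. Low replicates 1 and 2 and High replicate 5 formed the upper values, and the difference of -0.26 (SE 0.35) had a limma adjusted p of 0.855. Gbp7 reached 8.06 in High replicate 5, 7.77 in Low replicate 2 and 6.99 to 7.55 elsewhere. Gbp3 was 7.48 in High replicate 5 and 6.78 to 6.99 in the remaining 9 lines. Cxcl10, a chemokine for activated T cells, read 9.37 in High replicate 5, 9.13 in High replicate 3 and 8.97 in Low replicate 2, with 8.30 to 8.73 in the others. Below the detection filter, Mx2 read 5.61 to 5.88 in Low lines and 6.10, 5.69, 5.91, 6.10 and 6.94 in High lines. The difference of 0.42 had a two-sided exact permutation p of 0.0476, unadjusted, where the smallest possible with 5 against 5 lines is 0.00794. Mx1 stayed within 5.44 to 5.85 and Iigp1 within 5.14 to 5.61.

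**Figure D3:**
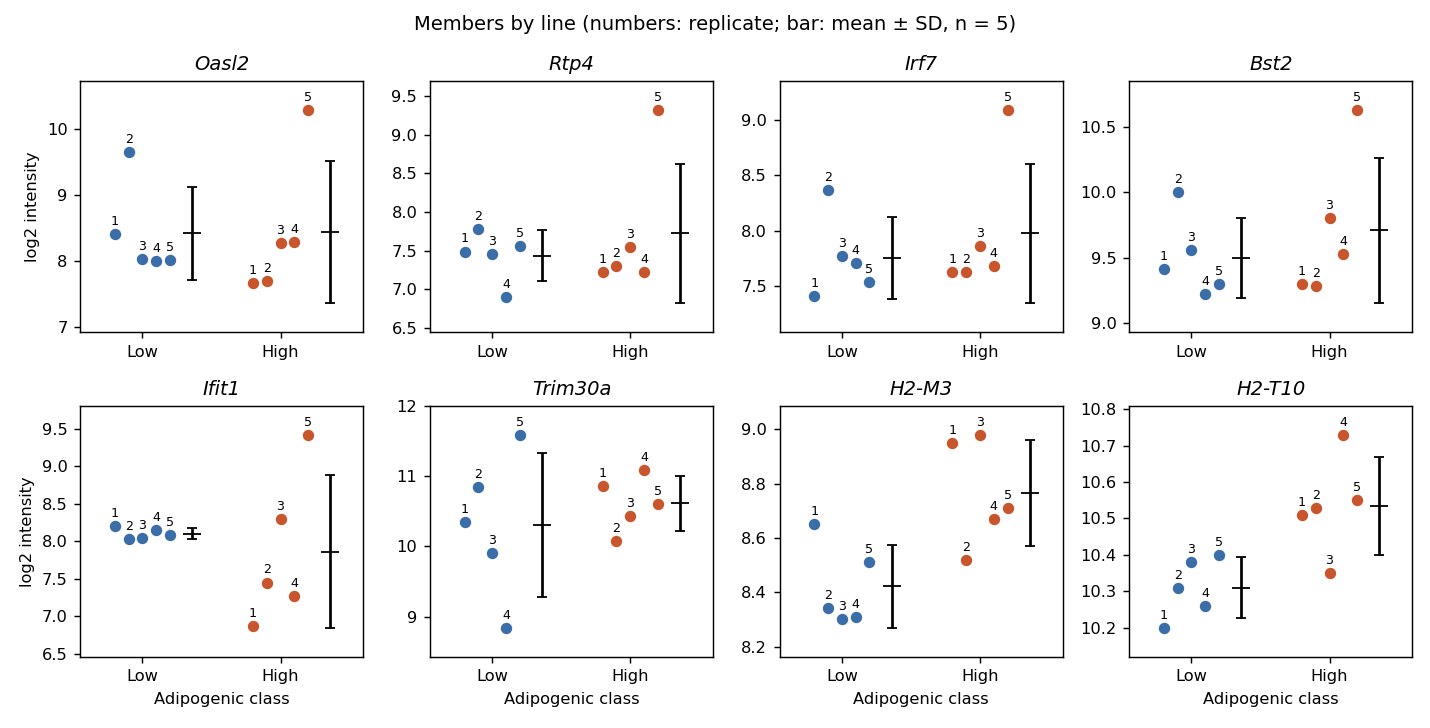
Log2 intensity (y axis) in each Low and High line for Oasl2, Rtp4, Irf7, Bst2, Ifit1, Trim30a, H2-M3 and H2-T10, with points numbered by replicate and bars for the mean ± SD (n = 5). High replicate 5 tops the first 5 panels, Trim30a is highest in Low replicate 5 at 11.59, and for H2-M3 and H2-T10 most High lines lie above most Low lines.

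The genes also moved with each other across lines. Over the 10 lines, the median Pearson r among the 378 pairs of interferon-stimulated genes was 0.62, and it was 0.62 with the class means removed. The median over all pairs of tested genes was 0.02. These are descriptions over 10 arrays that all pairs share. The value rested largely on a pair of lines, being 0.35 without High replicate 5 and 0.17 without that line and Low replicate 2. With Irf7, r was 0.98 for Dhx58, 0.96 for Xaf1, 0.95 for Bst2 and 0.94 for Ifit3, while it was 0.10 for Oasl1, 0.07 for Trim30a and -0.25 for Oas3. The 17 genes that stood more than 0.5 above their mean in High replicate 5 lay on 11 chromosomes, and the median centred value of the other genes of each such chromosome in that line ran from -0.08 to 0.05. High replicate 5 (5D4) and Low replicate 2 (2D7) did not share their level with the line of the same leading digit in its name. High replicate 4 (5C4) was at -0.08 and Low replicate 3 (2F1) at -0.04. The lines with the digit 4 were all below 0, at -0.31 (High replicate 2), -0.20 (Low replicate 5), -0.15 (Low replicate 4) and -0.04 (High replicate 3). Whether the level goes with the leading digit was not tested.

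A wider list of interferon-stimulated genes, outside the 35, had 50 of its 72 genes tested. High replicate 5 was highest for 25 of these (50%) and was placed at 0.29 by their median, and Low replicate 2 came next at 0.06. Spread was smaller than among the 28 chosen genes: 15 of the 50 (30%) covered more than 1 log2 unit, against 60.7%. The median SD over the lines was 0.195, against 0.355, and the median pairwise r over the 10 lines was 0.26, against 0.62. None passed the adjusted threshold, and the difference was positive for 32 and negative for 18. Uba7, the activating enzyme for ISG15, read 8.20, 8.36, 8.29, 7.92 and 8.17 in Low lines and 8.63, 8.43, 8.38, 8.45 and 8.46 in High lines, so that every High line lay above every Low line. Its difference of 0.28 (SE 0.09) had an unadjusted limma p of 0.00599 and an adjusted p of 0.404. Tdrd7, an interferon-induced tudor-domain protein, differed by 0.19 (limma on all genes, unadjusted p = 0.0363, limma adjusted p = 0.591). Both counts were near those of all genes. The classes did not overlap for 1 of the 50 (2.0%), against 1.57% of all genes. An unadjusted limma p under 0.05 with a higher signal in High lines was found for 2 (4.0%), against 3.16%.

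Of the 16 receptor and JAK-STAT genes tested, High replicate 5 was highest for 2, against 7.35% of all genes. None of the 16 had an unadjusted limma p under 0.05, where 7.95% of all genes did. Ifnar1, a chain of the type I receptor, ran from 10.93 to 11.36, with 11.33 in Low replicate 2 and 11.28 in High replicate 5. Ifngr1, of the interferon-gamma receptor, ran from 10.69 to 11.07 and the kinase Jak1 from 12.41 to 12.60. From the induction pathway, 3 of 12 genes tested covered more than 1 log2 unit, against 5.86% of all genes. Tlr3, an endosomal sensor of double-stranded RNA, was highest in Low replicate 2 at 9.84, 0.55 above the next line, and read 9.13 in High replicate 5. Tlr4, the receptor for bacterial lipopolysaccharide, covered 1.24 and was highest in Low replicate 5, and Ikbke, a kinase that activates IRF factors, covered 1.12 and was highest in High replicate 1. Mavs, the adaptor that relays RIG-I and MDA5 signals, ran from 11.54 to 11.86. Ifnb1, which encodes interferon-beta, was below the detection filter in all 10 arrays at 5.83 to 6.28, with 6.04 in Low replicate 2 and 6.0 in High replicate 5. Of 8 interferon genes with a probe set, 5 passed the filter, among them Ifna5 at 9.12 to 9.61 and Ifng at 7.28 to 7.46. High replicate 5 was highest for 0 of the 5. The filter places a signal within its array and does not show that a gene was expressed. Within the induction pathway, 1 gene had an unadjusted limma p under 0.05. This was Traf6, an adaptor of innate immune signalling, at a difference of -0.16 (unadjusted p = 0.0212, limma adjusted p = 0.517). Over all 118 tested genes of the wider pathway lists, 3 were higher and 2 lower in High lines at that unadjusted level and none at the adjusted one, where 3.16% and 4.79% of all genes were higher and lower.

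The antigen presentation genes with a probe set of their own varied less between clones than the interferon-stimulated genes. No gene of the 11 tested passed the adjusted threshold, and none covered more than 1 log2 unit by the probe set used. The median SD over the lines was 0.15, close to the 0.14 of all genes. Probe sets shared by class I heavy chains stand outside this count, and some were wider: 10450694, which lists H2-T9, H2-T22 and H2-T10, ran from 6.61 to 8.55, and 10450075, which lists H2-K1 and H2-D1 with another gene, from 10.41 to 11.55, both highest in High replicate 5. The difference was positive for 10 (90.9%, against 58.0% of all genes) and negative for 1, with a median of 0.08 beside 0.02 for all genes. An unadjusted limma p under 0.05 was found for 2 of the 11 (18.2%), against 7.95% of all genes in either direction. Both were higher in High lines, as were 3.16% of all genes at that level. They were the non-classical heavy chains H2-M3 and H2-T10. With a block for the clone names' leading digit, 0 of the 11 had one.

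**Figure D4:**
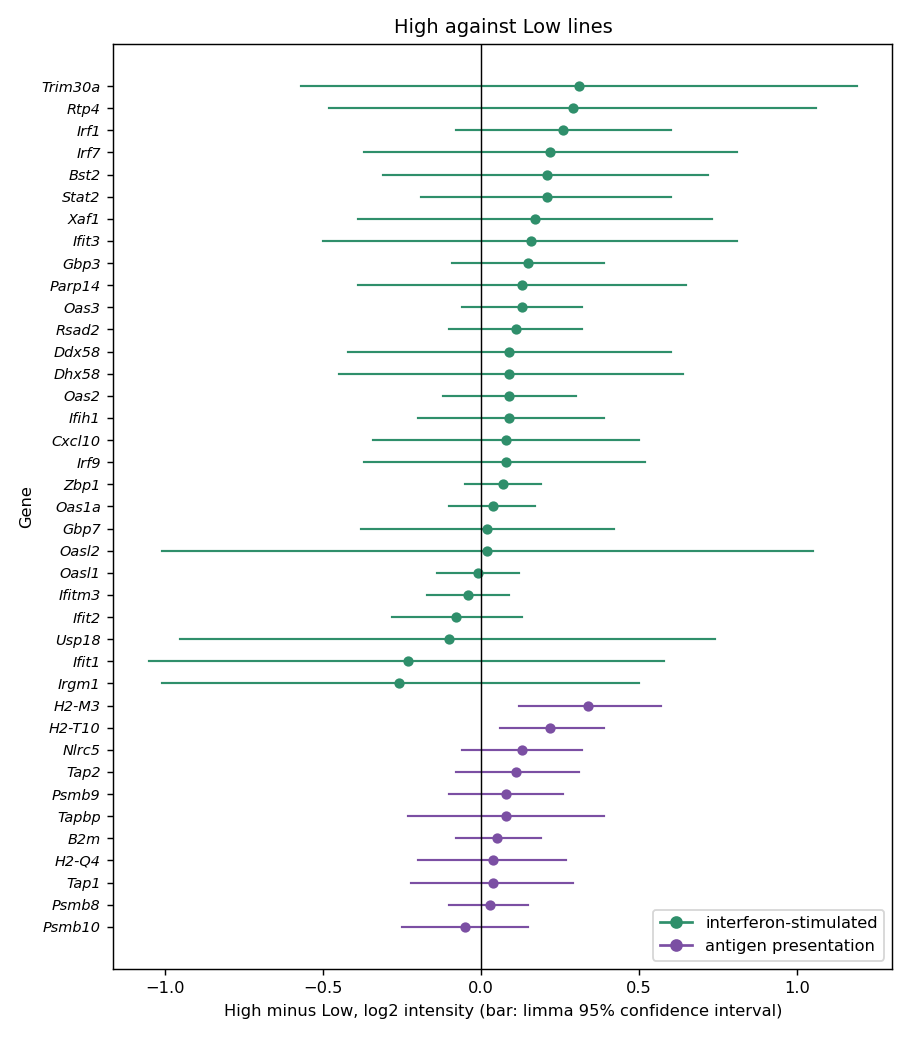
High minus Low difference in log2 intensity (x axis) with the limma 95% confidence interval for each of the 28 interferon-stimulated and 11 antigen presentation genes tested (y axis), ordered by difference within each set. The intervals of H2-M3 (0.12 to 0.57) and H2-T10 (0.06 to 0.39) lie above 0, before adjustment for the number of genes, and all others include 0.

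H2-M3 (Entrez gene 14991, probe set 10445119, chromosome 17), which presents formylated peptides of bacterial or mitochondrial origin, read 8.65, 8.34, 8.30, 8.31 and 8.51 in Low lines and 8.95, 8.52, 8.98, 8.67 and 8.71 in High lines. The classes overlapped through Low replicate 1, and 4 High lines lay above all Low lines. The means were 8.42 ± 0.15 and 8.77 ± 0.19 (SD, n = 5 each), a difference of 0.34 (SE 0.10) or 1.27-fold, with an unadjusted limma p of 0.00559, a limma adjusted p of 0.400 and a two-sided exact permutation p of 0.0159. H2-T10 (Entrez gene 15024, probe set 10450723, chromosome 17), a heavy chain of the T region that is recognised without peptide by some gamma-delta T cells, read 10.20, 10.31, 10.38, 10.26 and 10.40 in Low lines and 10.51, 10.53, 10.35, 10.73 and 10.55 in High lines. High replicate 3 alone fell within the Low range. The difference was 0.22 (SE 0.08), with an unadjusted limma p of 0.0117, a limma adjusted p of 0.470 and a two-sided exact permutation p of 0.0238. T-region genes are close copies of each other, and a probe set that lists H2-T10 together with H2-T9 and H2-T22 had a difference of -0.10. H2-Q4, the third heavy chain tested, read 6.48, 6.81, 6.53, 6.35 and 6.36 in Low lines and 6.58, 6.44, 6.44, 6.42 and 6.87 in High lines. It was the 1 antigen presentation gene with High replicate 5 first and Low replicate 2 second, and it passed the detection filter in 7 of 10 arrays.

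B2m, the light chain of all class I molecules, lay between 13.45 and 13.59 in 9 lines and at 13.72 in High replicate 5 (difference 0.05, SE 0.06, limma adjusted p = 0.838). Its values were 13.52, 13.54, 13.46, 13.49 and 13.50 in Low lines and 13.48, 13.55, 13.59, 13.45 and 13.72 in High lines. Tap1, a subunit of the peptide transporter, read 8.45, 8.75, 8.75, 8.25 and 8.37 in Low lines and 8.65, 8.39, 8.36, 8.55 and 8.81 in High lines (difference 0.04, SE 0.12, limma adjusted p = 0.935). The highest value was High replicate 5's, within 0.07 of Low replicates 2 and 3. Tap2, the other subunit, ran from 8.11 to 8.58. Tapbp, or tapasin, which joins class I molecules to the transporter, read 11.89, 12.12, 12.02, 11.33 and 11.93 in Low lines and 12.08, 11.61, 11.92, 12.01 and 12.08 in High lines. Low replicate 4 and High replicate 2 were its low values, and the difference was 0.08 (SE 0.14, limma adjusted p = 0.884).

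The immunoproteasome subunits, which replace constitutive catalytic subunits under interferon, were nearly flat. Psmb8 read 6.68, 6.77, 6.81, 6.76 and 6.73 in Low lines and 6.77, 6.79, 6.67, 6.90 and 6.77 in High lines, a difference of 0.03 (SE 0.06, limma adjusted p = 0.911). Psmb9 ran from 8.21 to 8.67. Psmb10 read 9.52, 10.04, 9.69, 9.63 and 9.68 in Low lines and 9.51, 9.64, 9.68, 9.76 and 9.71 in High lines, so that Low replicate 2 stood 0.27 above the next line (difference -0.05, SE 0.09, limma adjusted p = 0.894). The sign of Psmb8 turned under some processing settings, and Psmb10 was at 0.03 without Low replicate 2. Nlrc5, the transactivator of class I genes, read 10.37, 10.42, 10.46, 10.48 and 10.23 in Low lines and 10.48, 10.56, 10.36, 10.80 and 10.42 in High lines (difference 0.13, SE 0.09, limma adjusted p = 0.759). It had 19 probe sets of its own, with differences from -0.01 to 0.25, of which 16 were positive and 5 were highest in High replicate 5. The Nlrc5 probe set 10574102, dimmer than the one used, ran from 7.62 in Low replicate 5 to 8.67 in High replicate 5. Its r with the one used was 0.19, so the flatness of this gene depends on the probe set. The constitutive subunits Psmb5, Psmb6 and Psmb7 had differences of -0.10, -0.10 and -0.06. From the wider class I list, Ide, a peptidase, was lower in High lines by its unadjusted limma p of 0.00246 (difference -0.27), with a limma adjusted p of 0.308. Cd74, the class II invariant chain, differed by 0.39 (unadjusted p = 0.0374, limma adjusted p = 0.593).

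By the median of the centred values over the 11 genes, the lines ran from 0.12 in High replicate 5 and 0.11 in High replicate 4 to -0.11 in Low replicate 4. Low replicate 2 was at 0.01 and the steps between neighbours were small beside the typical SD of 0.15 of a gene over the lines. High replicate 5 was highest for 3 of the 11 genes (27.3%, against 7.35% of all genes). For High replicate 4 it was 5 (45.5%, against 28.9% of all genes). The median pairwise r was 0.29 over 55 pairs, and 0.22 without High replicate 5.

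The mean log2 signal of 13 macrophage and leukocyte genes ran from 7.14 to 7.24 in Low and from 7.15 to 7.36 in High lines, with 7.21 in both High replicate 5 and Low replicate 2, and 10 of the 13 passed the detection filter. Ptprc, Adgre1 and Itgam did not, while Cd68 reached 9.04 (High replicate 2), Lyz2 8.90 (High replicate 1) and Cd14 8.80 (Low replicate 5). For 8 endothelial genes it ran from 6.88 to 7.0 and from 6.91 to 7.13. For 8 mature adipocyte genes it was 7.51 to 7.55 in Low and 7.49 to 8.06 in High lines, with 7.49 in High replicate 5. Of these 8, 5 passed the filter. Fabp4 had class means of 8.60 in Low and 9.82 in High lines (limma adjusted p = 0.298). Cd36, below the filter, had 5.22 and 6.34. Differences of the others ran from -0.11 (Adipoq, below the filter) to 0.21 (Lpl). The mean of 11 fibroblast and preadipocyte genes was 11.79 to 12.12 over the lines, and 10 of the 11 passed the filter. Lum did not, at 4.83 to 5.48.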

How the data were processed

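RNA of 10 clonal lines was hybridised to whole-transcript Affymetrix arrays, 1 array per line. The deposited values are log2 intensities per probe set, made by RMA per the submitters' processing notes, which give no version. RMA makes the arrays' distributions alike, which removes a change shared by most genes. Its settings, the annotation behind the summaries and possible array batches were not given in the sources used here. Of 34760 probe sets, 21640 carried 1 symbol in the platform annotation, 1321 several and 11799 none, and 21553 of the first kind were found in RefSeq (GRCm38.p6). For genes with several probe sets (954), the brightest was used. The classes were compared in R 4.3.3 by limma 3.58.1, using lmFit and eBayes, two-sided, with Benjamini and Hochberg's adjustment over 16339 genes and a threshold of 0.05. Single genes also had a two-sided exact permutation test. The test was checked on simulated data with noise drawn apart for each gene. It recovered 16 of 50 genes changed 1.25-fold, 41 of 50 changed 1.5-fold and 50 of 50 changed 4-fold. Small differences could thus be missed, and variation shared between genes was not simulated. The changed genes were drawn at random from all genes tested, whose median SD over the lines was 0.14. It was 0.36 for the interferon-stimulated genes, so these shares do not hold for them, and larger differences in them could also be missed. Differences are High minus Low, and folds are taken from them on the RMA scale. Tables and plots used Python 3.11.15, pandas 2.3.3, numpy 2.4.6 and matplotlib 3.10.9.

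The genes and lists were chosen with earlier results of these data known. Values of all lines are printed for genes with an unadjusted p under 0.05, the 3 largest differences in each direction and the 4 largest SDs over the lines in each set, and a fixed panel of Irf1, Irf7, Stat2, Isg15, Ifit1, Bst2, Ifitm3, H2-K1, H2-D1, B2m, Tap1, Psmb8 and Nlrc5. Isg15, H2-K1 and H2-D1 have no values of their own. From the wider lists, Ifnar1, Ifngr1, Jak1, Mavs, Ifnb1 and up to 4 genes of a role with the smallest unadjusted p under 0.05 are named. 1 item of the rule is not reported here. Other genes were named after their values were seen. The 18 alternatives covered the filter, the choice of probe set, normalization, variance models, array weights, a block for the clone names' leading digit and each line left out.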

Additional observations from a re-analysis of the deposited data

Results flagged for a closer look

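In 5 of 44 groups of 5 values examined, 1 line stood apart from the other 4 of its class by Dixon's criterion at the 95% level. Chance flags about 1 in 20 single groups, but these genes were named in part for their spread and vary together, so no chance count holds for the 44. High replicate 5 was the line in 4 of them. Among High lines, Rtp4 was 9.32 in that line against 7.22 to 7.55 in the others, Irf7 was 9.09 against 7.63 to 7.86, and Oasl2 was 10.28 against 7.66 to 8.28. The median centred value of the 28 interferon-stimulated genes was 0.653 in that line and -0.31 to -0.03 in the other High lines. Among Low lines, Oasl2 was 9.64 in Low replicate 2 and 8.0 to 8.40 in the others.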

How the results depend on the processing

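No interferon-stimulated or antigen presentation gene passed the adjusted threshold under any of the 18 alternatives. Among all genes the count of 1 became 2 with arrays centred on their median, 3 with array weights and 0 with a block for the clone names' leading digit, and it ran from 1 to 19 with single lines left out, the 19 without High replicate 5. The median difference of the interferon-stimulated genes ran from -0.073 to 0.174, negative only without High replicate 5, and that of the antigen presentation genes from 0.045 to 0.115. At an unadjusted p under 0.05, the count of interferon-stimulated genes rose from 0 to 1 without the filter and ran from 0 to 2 with single lines left out, while that of antigen presentation genes fell from 2 to 0 with the digit block, where H2-M3 kept a difference of 0.35 and H2-T10 had 0.11. Only the lines with the digit 4 span both classes, and there the medians were 0.03 for the interferon-stimulated and 0.08 for the antigen presentation genes, 2 lines a class. The sign of Oasl2 turned with arrays centred on their median (-0.01), with quantile normalization repeated (-0.00) and with the digit block (-0.02), as did that of Psmb8 (-0.01, -0.00 and -0.02), and Psmb10 was 0.00 with the digit block. With single lines left out, differences that changed sign ran from -0.06 to 0.63 for Trim30a, -0.11 to 0.41 for Rtp4, -0.62 to 0.01 for Ifit1, -0.52 to 0.11 for Usp18, -0.44 to 0.33 for Oasl2, -0.10 to 0.03 for Psmb10, -0.05 to 0.16 for Tapbp, -0.03 to 0.10 for Tap1, -0.04 to 0.11 for H2-Q4, -0.06 to 0.37 for Irf7, -0.02 to 0.33 for Bst2 and -0.00 to 0.05 for Psmb8. The cause was not tested. The place of High replicate 5 in the interferon-stimulated genes stayed between 0.613 and 0.783, that of Low replicate 2 between 0.244 and 0.372 and that of High replicate 2 between -0.356 and -0.217. No paired analysis was possible because the clone labels give the classes no shared replicate numbers. The correlations and ranks without High replicate 5 were added after the data were seen. The number of lines limits the precision, and Mx1, Mx2, Iigp1 and Ifnb1 were below the filter of the main comparison.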

Other observations

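The genes without a probe set of their own were met by 8 probe sets that list several genes, which give no value to 1 gene. Of the 8, 6 were highest in High replicate 5. With 3 further shared probe sets, of Tapbp and Oas1a, differences ran from -0.10 to 0.39. Probe set 10444780, which lists the classical class I heavy chains H2-D1 and H2-K1 with another gene, had means of 10.93 ± 0.18 (SD, n = 5 Low lines) and 11.18 ± 0.18 (SD, n = 5 High lines), with a difference of 0.24 and a two-sided exact permutation p of 0.0635. Its highest lines were High replicate 5 at 11.46 and Low replicate 2 at 11.24. Probe set 10450075, which lists the same genes, differed by 0.20 and had the same order, at 11.55 and 11.46. Probe set 10496592, which lists Gbp2 and Gbp2b, differed by 0.39 and read 8.84 in High replicate 5. Probe set 10376326, which lists Irgm2 and Igtp, read 7.74 in High replicate 5 and 7.31 in Low replicate 2. Probe set 10451287, which lists Isg15 and Gm9706, did not show the pattern, at 6.99 in High replicate 5 and 6.96 in Low replicate 2.

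Genes outside the list were also set against the median profile of the 28 interferon-stimulated genes over the 10 lines. The choice was made after the values were seen, and the correlations carry no test. The eosinophil chemokine Ccl11 had the highest r, at 0.96, followed by Trim21 at 0.957, the double-stranded RNA-dependent kinase Eif2ak2 at 0.926 and Glod4 at 0.919. Of the 20 highest, with r from 0.87 to 0.96, 8 belonged to the wider pathway lists, which held 118 of the 16339 genes tested. The others included the inhibitor of metalloproteinases Timp2 at 0.879 and Smpdl3a at 0.915.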
